A study of Homo sapiens with 4 samples.

Results

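Pyruvate stands at a branch point of glucose metabolism, and 10 genes that set its fate were followed here. They are the lactate dehydrogenase genes LDHA and LDHB, the lactate transporter genes SLC16A1 and SLC16A3, the mitochondrial pyruvate carrier genes MPC1 and MPC2, PDHA1 of the pyruvate dehydrogenase complex, and the kinase genes PDK1, PDK2 and PDK3 that switch the complex off. The genes were taken by name, and a gene was measured where a row of the array table carried its symbol alone. Of the 10, 8 were measured, among 22465 genes in all. SLC16A1 and SLC16A3 are not analysed here. The cells were MHCC-LM3, an established human hepatocellular carcinoma line, grown in a medium with serum and added sodium pyruvate. They were exposed for 24 h to 50 µM zerumbone, a sesquiterpene of ginger plants, or to DMSO, its solvent, and each of the 2 groups has 2 arrays. The study's title concerns glucose metabolism, and the comparison asks whether the genes of pyruvate use differ after the compound. Whether a group's arrays stem from separate cultures is not stated, and the spread behind every p-value may therefore be technical.

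In the cytosol, lactate dehydrogenase reduces pyruvate to lactate and restores the NAD that glycolysis needs. Lactate leaves the cell through proton-coupled carriers of the SLC16A family. In mitochondria, the carrier formed by MPC1 and MPC2 brings pyruvate to the pyruvate dehydrogenase complex, which turns it into acetyl-CoA for citrate. The PDK kinases phosphorylate the E1 alpha subunit, the product of PDHA1, and so stop the complex. Many tumours, liver tumours among them, are known for making lactate in the presence of oxygen.

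Of the 8 measured genes, 4 fell under zerumbone: LDHA, LDHB, PDK3 and PDHA1. None rose, and PDK1, PDK2, MPC1 and MPC2 did not pass the test. The test was limma's, two-sided, and a gene passed where its p, adjusted by Benjamini-Hochberg over the whole table, was under 0.05. No gene of the 8 was higher at an unadjusted p under 0.05 in limma, and 5 were lower. The share of all genes under that looser threshold was not computed, and the shares that follow use the adjusted p. Over the whole table, 36.0% of genes passed, 17.7% as lower and 18.4% as higher, so the groups differed widely. The table includes 10978 genes at background level in both groups, of which 771 passed, so the share is higher among brighter genes. When only the 10349 genes above background on both arrays of at least 1 group were tested, 3851 passed as lower and 3779 as higher. Of the 8 genes, only PDK2 was at background level in both groups. The median difference of the 8 genes, zerumbone minus DMSO, was -0.45 on the log2 scale, against 0.07 over all genes and 0.00 over the 11487 genes that were not at background level in both groups. Both zerumbone values lay below both DMSO values for 6 of the 8 genes, as they did for 26.3% of all genes. They lay above for PDK1, as for 43.6% of all genes, and the groups overlapped for PDK2. In RNA from whole cultures, fewer cells of a type and less RNA per cell cannot be told apart.

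**Figure D1:**
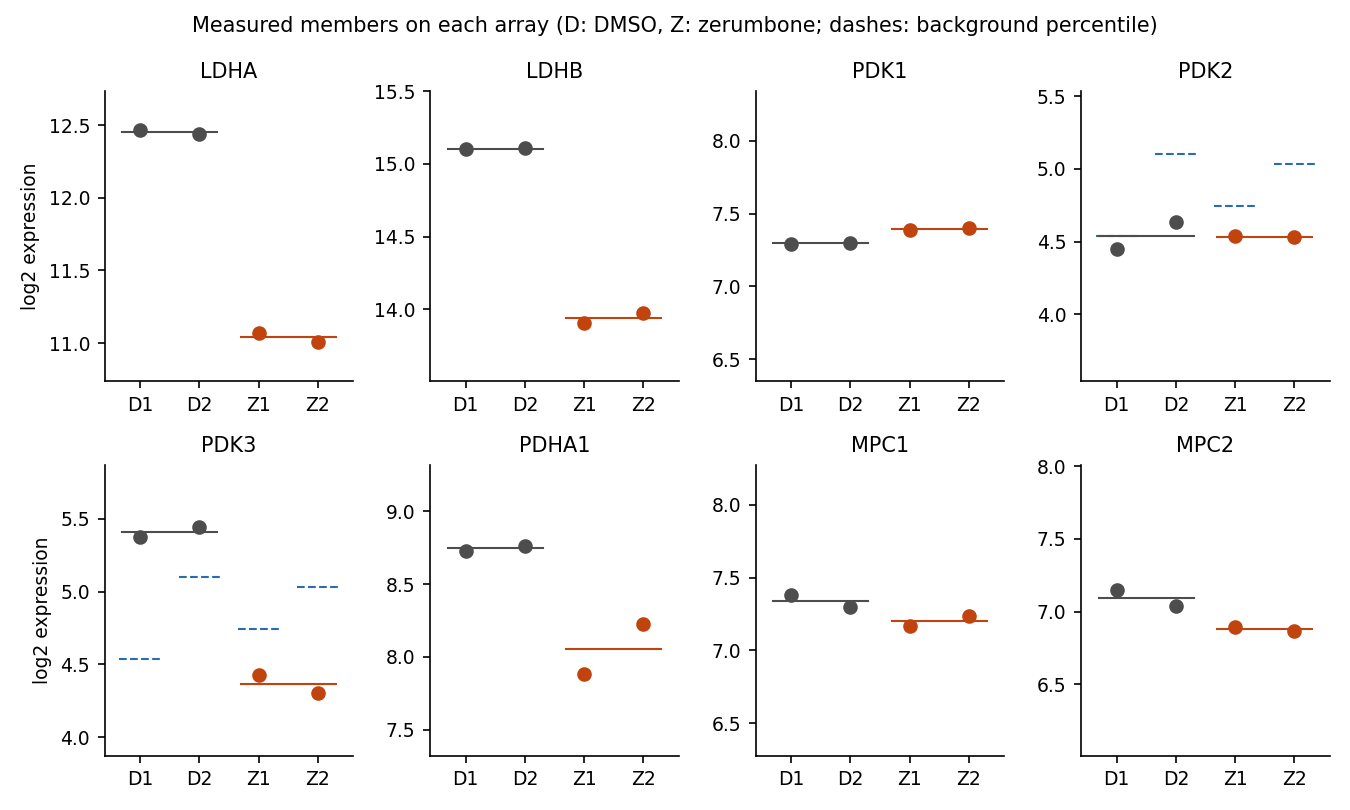
Log2 expression of the 8 measured genes on each array (points; D1 and D2 are DMSO, Z1 and Z2 zerumbone), with the group means as lines, a span of 2 log2 units in every panel, and dashes at the background percentile where it lies in range. LDHA, LDHB, PDK3 and PDHA1 are lower on both zerumbone arrays, and PDK3 drops from above to below the dashes.

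LDHA, the form of lactate dehydrogenase that is abundant in muscle and in many tumours, was at 12.46 and 12.44 log2 units on the DMSO arrays and at 11.07 and 11.01 on the zerumbone arrays. Its groups were far apart against the gap between arrays of a group. LDHA fell by 1.41 on the log2 scale (95% confidence interval -1.57 to -1.25), a 2.66-fold change with a limma adjusted p of 1.17e-04. Of all genes, 3.65% fell further.

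LDHB, the form abundant in heart, was at 15.10 and 15.11 under DMSO and at 13.90 and 13.97 under zerumbone. The groups did not overlap here either. LDHB fell by 1.17 on the log2 scale (95% confidence interval -1.33 to -1.003), a 2.24-fold change with a limma adjusted p of 1.98e-04. Of all genes, 4.99% fell further.

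The within-array difference of LDHA minus LDHB was -2.64 and -2.67 under DMSO and -2.83 and -2.96 under zerumbone, a shift of -0.24. The exact permutation test over arrays, two-sided, gave p = 0.333, the smallest value that 2 arrays against 2 allow, so this shift cannot pass a threshold of 0.05. It is a change of the ratio and not a comparison of the genes' levels, because different probes have different brightness. LDHA and LDHB are close paralogs with processed pseudogenes, and probes may be shared.

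The other lactate dehydrogenase genes were not above background. LDHC, the testis form, LDHD, which acts on D-lactate, LDHAL6A and LDHAL6B lay between 3.26 and 4.17 on all arrays. Background level means here that a gene's values on both arrays of the group were under the 95th percentile of 23 antigenomic rows, whose probes match no human sequence. That percentile was 4.54 and 5.10 on the DMSO arrays and 4.74 and 5.03 on the zerumbone arrays. None of the 4 genes passed limma's test, with 0 also at an unadjusted p under 0.05.

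LDHA and PDK1 are textbook targets of the hypoxia-inducible factor HIF-1, and here LDHA fell while PDK1 did not pass. Their promoters are shown for this reason, with that of PDK3, which fell, and that of LDHB, which fell and holds no match. Each is the 250 bases before an annotated start, from RefSeq on GRCh38.p14, read 5′ to 3′ on the gene's strand. The LDHA window is chr11:18394313-18394562 on the plus strand and the PDK1 window chr2:172555840-172556089 on the plus strand. The PDK3 window is chrX:24465036-24465285 on the plus strand and the LDHB window chr12:21657843-21658092 on the minus strand. Capitals mark ACGTG on either strand, 1 form of the core of the sequence that HIF-1 is known to bind. Other forms of the core were not searched. Where ACGTG lies inside CACGTG, the E-box bound by MYC among others, the overlapping matches of both strands count as 1 place.
LDHA: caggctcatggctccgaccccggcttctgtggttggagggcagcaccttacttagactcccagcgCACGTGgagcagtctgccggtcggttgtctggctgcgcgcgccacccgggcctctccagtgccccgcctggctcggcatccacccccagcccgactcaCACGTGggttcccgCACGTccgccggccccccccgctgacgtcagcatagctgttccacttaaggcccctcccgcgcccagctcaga
PDK1: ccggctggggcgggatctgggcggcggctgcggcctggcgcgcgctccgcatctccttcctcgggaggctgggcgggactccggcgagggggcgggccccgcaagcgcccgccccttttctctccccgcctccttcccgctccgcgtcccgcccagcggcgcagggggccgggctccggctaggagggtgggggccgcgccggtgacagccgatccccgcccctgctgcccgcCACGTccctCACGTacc
PDK3: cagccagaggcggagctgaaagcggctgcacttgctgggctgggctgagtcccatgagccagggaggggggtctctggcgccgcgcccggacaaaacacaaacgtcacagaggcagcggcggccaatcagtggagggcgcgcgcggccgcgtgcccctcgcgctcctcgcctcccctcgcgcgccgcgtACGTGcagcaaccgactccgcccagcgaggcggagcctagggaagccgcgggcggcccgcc
LDHB: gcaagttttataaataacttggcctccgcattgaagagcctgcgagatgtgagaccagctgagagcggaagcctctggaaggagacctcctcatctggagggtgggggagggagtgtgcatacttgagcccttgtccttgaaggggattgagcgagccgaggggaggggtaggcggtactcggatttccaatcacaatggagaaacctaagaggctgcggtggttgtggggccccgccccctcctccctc

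The LDHA window holds ACGTG at 3 places, which begin 185, 87 and 73 bases before the start, and 2 of them are the full CACGTG. The PDK1 window holds it at 2 places, 17 and 8 bases before the start, and the PDK3 window at 1, 61 bases before. Of 34943 RefSeq windows of the same length, 18.5% hold ACGTG, 2.61% hold it at 2 or more places and 6.32% hold CACGTG. Of the 10 genes, 9 have windows, 19 in all, and 5 of the 19 hold ACGTG. Besides the windows shown, 1 window of PDK2 holds it, as CACGTG 129 bases before the start, and 1 of SLC16A3 holds it at 2 places. PDK2 is at background level in both groups and SLC16A3 is not analysed, so neither can be set against the calls. PDK1 has matches and did not pass, while LDHB and PDHA1 have none and fell. Whether matches and calls are linked was not tested. The windows that begin at other annotated starts of LDHA and PDK1 hold none. PDHA1, MPC1 and MPC2 have no ACGTG in these windows. A match is a description of the letters and shows no binding in these cells.

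MPC1 and MPC2 form the heteromeric carrier of the inner mitochondrial membrane. MPC1 was at 7.38 and 7.30 under DMSO and at 7.17 and 7.24 under zerumbone. Its difference of -0.14 (95% confidence interval -0.31 to 0.04) did not pass, with a limma adjusted p of 0.197. MPC2 was at 7.15 and 7.04 under DMSO and at 6.89 and 6.87 under zerumbone.

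MPC2 lay lower on both zerumbone arrays by a small margin. Its difference of -0.21 (95% confidence interval -0.39 to -0.04) did not pass over all genes, with a limma adjusted p of 0.0702. With dim genes left out it passed at 0.0384. The difference MPC1 minus MPC2 was 0.23 and 0.26 under DMSO and 0.28 and 0.37 under zerumbone, a shift of 0.08 with an exact permutation p of 0.333, again the smallest possible. The intervals of both carrier genes share no value with those of LDHA and LDHB, and the differences between genes were not tested.

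PDHA1 encodes the E1 alpha subunit, the decarboxylase part of the complex and the target of its kinases. It was at 8.73 and 8.76 under DMSO and at 7.88 and 8.22 under zerumbone. The zerumbone arrays stood apart from each other by more than the DMSO arrays, yet both were lower. PDHA1 fell by 0.69 on the log2 scale (95% confidence interval -1.02 to -0.37), a 1.62-fold change with a limma adjusted p of 0.0109. The call was lost without DMSO replicate 1 (adjusted p 0.0693) and without DMSO replicate 2 (0.0757), at differences of -0.71 and -0.68. Without zerumbone replicate 1 the difference was -0.52 and without zerumbone replicate 2 it was -0.86, and both kept the call.

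The partners of PDHA1 did not all move one way. With PDHA1, the complex has 5 subunit genes above background in both groups, of which 4 fell and 1 rose. Of all genes 36.0% passed, and the share is higher among genes above background. DLAT, the E2 acetyltransferase core, went from 9.55 and 9.68 to 8.28 and 8.54, a 2.30-fold fall with a limma adjusted p of 0.00102. DLD, the E3 subunit that the complex shares with other keto acid dehydrogenases, went from 14.00 and 14.04 to 12.90 and 13.18, a 1.97-fold fall (adjusted p 0.00202). PDHB, the E1 beta subunit, went from 7.40 and 7.46 to 7.01 and 6.83, a 1.42-fold fall.

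PDHB had a limma adjusted p of 0.00850, and its call was lost without either DMSO array (0.0525 and 0.0702). PDHX, which tethers E3 to the E2 core, moved the other way. It was at 8.81 and 8.97 under DMSO and at 9.52 and 9.58 under zerumbone, a rise of 0.66 on the log2 scale (95% confidence interval 0.46 to 0.87) with a limma adjusted p of 0.00255. Its interval shares no value with those of the 4 subunits that fell, and the differences between subunits were not tested. PDHA2, the testis form of E1 alpha, was at background level in both groups, although its difference passed at 0.0492.

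Of the 3 kinase genes followed, PDK3 fell and PDK1 and PDK2 did not pass. PDK3 was at 5.38 and 5.44 under DMSO, above the background percentile of each array, and at 4.43 and 4.30 under zerumbone, below it. The measured difference was -1.04 (95% confidence interval -1.24 to -0.85), with a limma adjusted p of 4.33e-04. Since the zerumbone values are at background level, the fall is given as at least 1.43-fold, with the percentile in place of the dimmer value.

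PDK1, the kinase best known from hypoxic cells, was at 7.29 and 7.30 under DMSO and at 7.39 and 7.40 under zerumbone. Both zerumbone values were higher by a small margin. The difference of 0.10 (95% confidence interval -0.06 to 0.25) had a limma adjusted p of 0.268, and the interval leaves out a rise of more than 0.25 on the log2 scale. PDK2, a kinase of many tissues, did not exceed background in either group, at 4.45 and 4.63 under DMSO and at 4.54 and 4.53 under zerumbone, so no size of change is given. The difference PDK1 minus PDK3 was 1.91 and 1.86 under DMSO and 2.96 and 3.10 under zerumbone, with an exact permutation p of 0.333. As PDK3 is at background level under zerumbone, the size of this shift, 1.14 as measured, is not settled.

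PDK4, a kinase induced by fasting, lay under the percentile on 1 array of each group, with a limma adjusted p of 0.884. Of the opposing phosphatase genes, PDP1, a catalytic subunit, differed by -0.06 (95% confidence interval -0.21 to 0.10) without passing. PDPR, the regulatory subunit, rose from 5.62 and 5.64 to 5.90 and 5.97, with a limma adjusted p of 0.0191. The rise of PDPR was lost with all transcript clusters tested (0.0812), without DMSO replicate 1 (0.124) or 2 (0.104), and without zerumbone replicate 2 (0.0603). PDP2 is not analysed here.

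**Figure D2:**
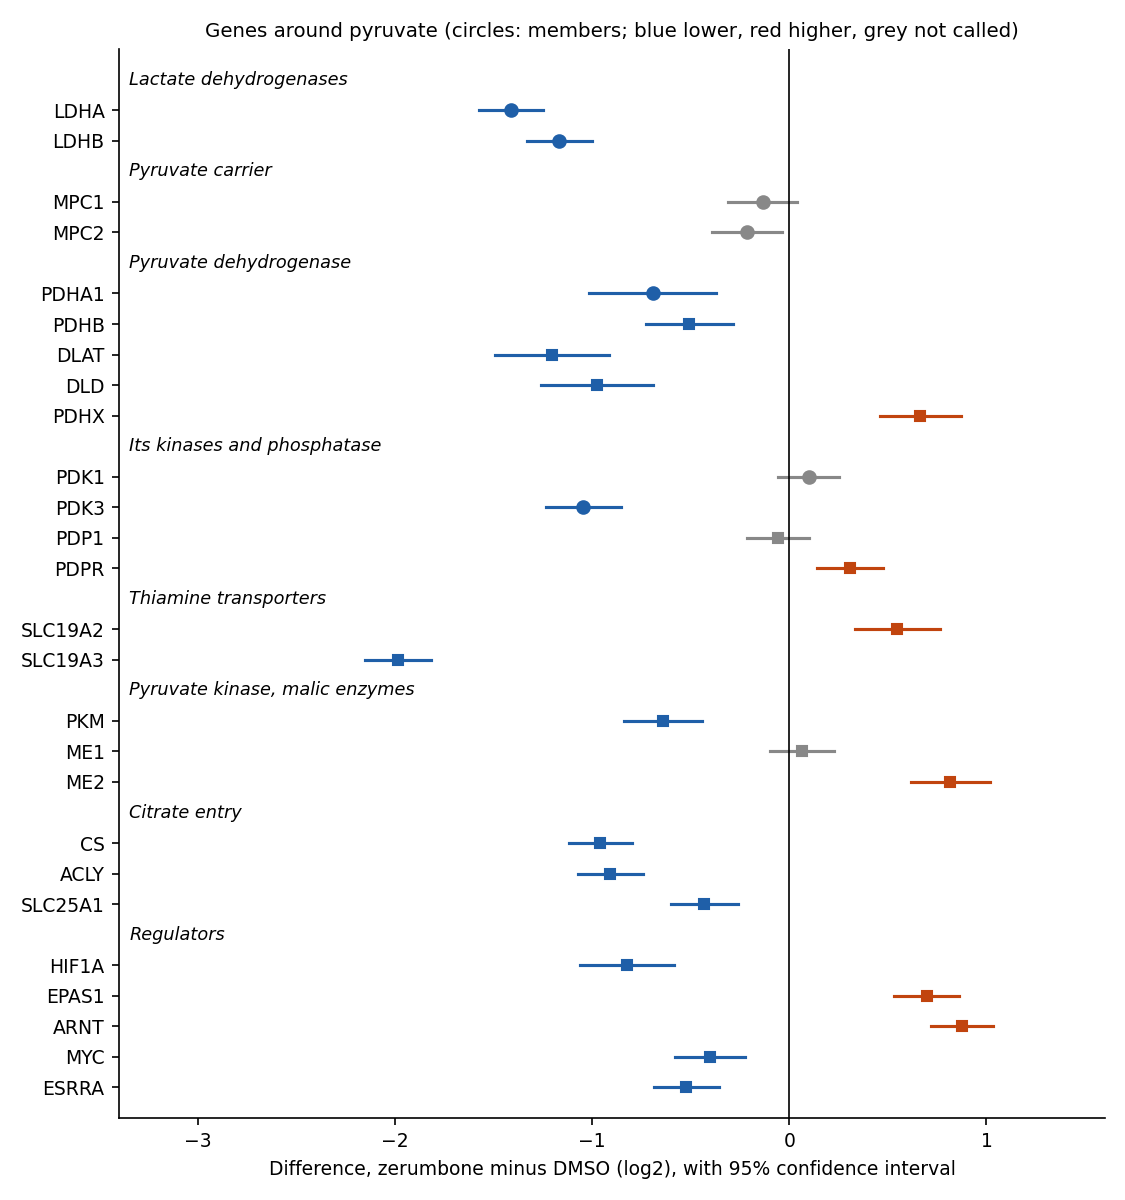
Difference, zerumbone minus DMSO, on the log2 scale with its 95% confidence interval from limma, for the genes followed here (circles) and other genes of pyruvate metabolism (squares), in blue where lower, red where higher and grey where the test was not passed. Within pyruvate dehydrogenase PDHX stands to the right of 0 and the other subunits to the left, and the point of PDK3 is a measured difference to a group at background level.

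The other genes around pyruvate were described as lists of 44 genes, of which 40 were measured. Of these, 14 fell, 7 rose and 19 did not pass, beside the 36.0% of all genes that passed. Their median difference was -0.04. The counts include PDHA2 and PPARGC1B, which were at background level in both groups.

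Of the genes that make pyruvate or use it otherwise, 2 fell and 2 rose of 9 measured. PKM, the pyruvate kinase of most tissues outside liver, went from 15.55 and 15.52 to 14.97 and 14.82, a 1.56-fold fall with a limma adjusted p of 0.00246. ME2, the mitochondrial malic enzyme that makes pyruvate from malate, went from 10.95 and 11.09 to 11.80 and 11.88, a 1.76-fold rise (adjusted p 0.00109). ME1, its cytosolic counterpart, was at 13.92 and 13.88 under DMSO and at 13.94 and 13.99 under zerumbone, with an adjusted p of 0.496.

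ME3, the other mitochondrial malic enzyme, fell (limma adjusted p 0.00194) to values under the background percentile on 1 zerumbone array, so its size is not given. PCK2, the mitochondrial carboxykinase, passed as higher at 0.0309 from values under the percentile on 1 DMSO array. The call of PCK2 was lost with all transcript clusters tested (0.104) and without any 1 of the 4 arrays (0.0631 to 0.174). PC, the pyruvate carboxylase, was at background level under zerumbone and did not pass, with an adjusted p of 0.0831, and passed at 0.0452 after cyclic loess.

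All 3 genes listed for the making, transport and splitting of citrate fell. CS, the citrate synthase that joins acetyl-CoA to oxaloacetate, went from 13.11 and 13.09 to 12.17 and 12.11, a 1.94-fold fall with a limma adjusted p of 3.31e-04. ACLY, which splits citrate in the cytosol, went from 13.29 and 13.32 to 12.37 and 12.43, a 1.88-fold fall (adjusted p 4.28e-04). SLC25A1, the citrate carrier, fell 1.35-fold, with its call lost without either DMSO array (0.0581 and 0.0508).

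Pyruvate dehydrogenase needs thiamine diphosphate and lipoate. Of 5 measured genes of their supply, 1 fell and 1 rose, and both are thiamine transporters. SLC19A3 went from 7.12 and 7.11 to 5.17 and 5.08, a 3.96-fold fall with a limma adjusted p of 6.83e-05, and 1.69% of all genes fell further. SLC19A2 went from 8.01 and 8.05 to 8.49 and 8.67, a 1.46-fold rise (adjusted p 0.00574) that was lost without DMSO replicate 1 (0.0533). LIAS, the lipoate synthase, was at 6.44 on both DMSO arrays and at 6.26 and 6.34 under zerumbone, with an adjusted p of 0.169.

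BSG, the chaperone that carries the lactate transporters to the membrane, was at 11.05 and 11.02 under DMSO and at 10.87 and 10.95 under zerumbone. Its difference of -0.12 (95% confidence interval -0.29 to 0.04) did not pass, with a limma adjusted p of 0.215. SLC16A7, a monocarboxylate transporter with high affinity for pyruvate, SLC16A8 and the chaperone EMB were at background level in both groups.

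Among transcription factors and coactivators known to act on these genes, 4 fell, the coactivator gene PPARGC1B at background level among them, and 2 rose of 7 measured. HIF1A, the oxygen-regulated subunit of HIF-1, went from 15.04 and 15.07 to 14.13 and 14.34, a 1.77-fold fall with a limma adjusted p of 0.00193. ARNT, its partner subunit, went from 9.95 and 9.94 to 10.80 and 10.84, a 1.84-fold rise (adjusted p 4.15e-04). EPAS1, the related subunit of HIF-2, rose 1.62-fold, from 9.76 and 9.70 to 10.42 and 10.44. HIF proteins are known to be controlled mainly through their stability, which the arrays do not measure.

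MYC, which acts through the E-box, fell 1.32-fold, with a limma adjusted p of 0.00861 and a call lost without DMSO replicate 1 (0.0738) or 2 (0.0600). ESRRA, a nuclear receptor of mitochondrial genes, fell 1.44-fold (adjusted p 0.00275). Its coactivator gene PPARGC1A was at background level in both groups.

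**Figure D3:**
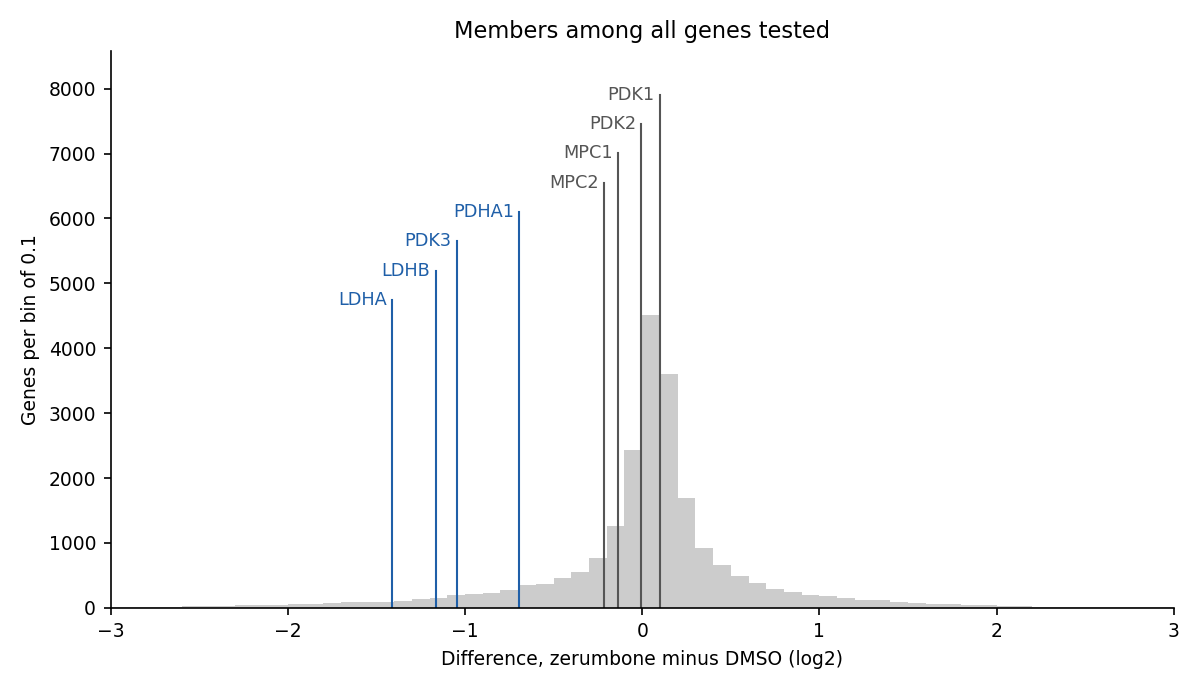
Number of genes per bin of 0.1 in the log2 difference, zerumbone minus DMSO, over the 22465 genes tested, with the x axis ending at 3 log2 units on either side and lines at the 8 measured genes (blue where lower, grey where the test was not passed). LDHA, LDHB, PDK3 and PDHA1 stand in the left tail, and PDK1, PDK2, MPC1 and MPC2 near the centre.

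Facts of the arrays as a whole bear on these values. The median of 67528 transcript clusters ranged from 3.83 to 3.86 on the DMSO arrays and from 3.92 to 3.96 on the zerumbone arrays. The labels give no batch, and the sample titles run through the DMSO samples before the zerumbone samples, so an order of processing that followed the titles and the treatment cannot be told apart. Of 7 measured hepatocyte markers, 6 did not exceed background in either group, and ALB exceeded the percentile on 1 zerumbone array only. The epithelial keratin genes KRT8 and KRT18 lay between 14.14 and 15.91 and fell by 1.31 and 0.75, and CDH1, an epithelial cadherin, fell by 0.48. EPCAM, the remaining epithelial marker, was at background level in both groups and did not pass, with a difference of 0.06. Of the markers of other cell types, 3 of 4 for leukocytes, 2 of 3 for fibroblasts and 3 of 4 for endothelium did not exceed background in either group. CD68, a lysosomal protein of macrophages, rose by 0.93 and KDR, an endothelial receptor, fell by 1.93. The endothelial PECAM1, at background level in both groups, passed as lower, and so did the fibroblast DCN, which exceeded the percentile on 1 DMSO array only. The summed log2 level of the leukocyte markers was 24.00 to 24.03 under DMSO and 25.35 to 25.46 under zerumbone, and that of the endothelial markers 19.10 to 19.22 and 16.90 to 17.17. For the fibroblast markers it was 12.01 to 12.04 and 11.63 to 11.89. CD68 and KDR were the only leukocyte and endothelial markers above background in both groups, so these sums mix them with values at background level. The part of the markers in the results was not tested.

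**Figure D4:**
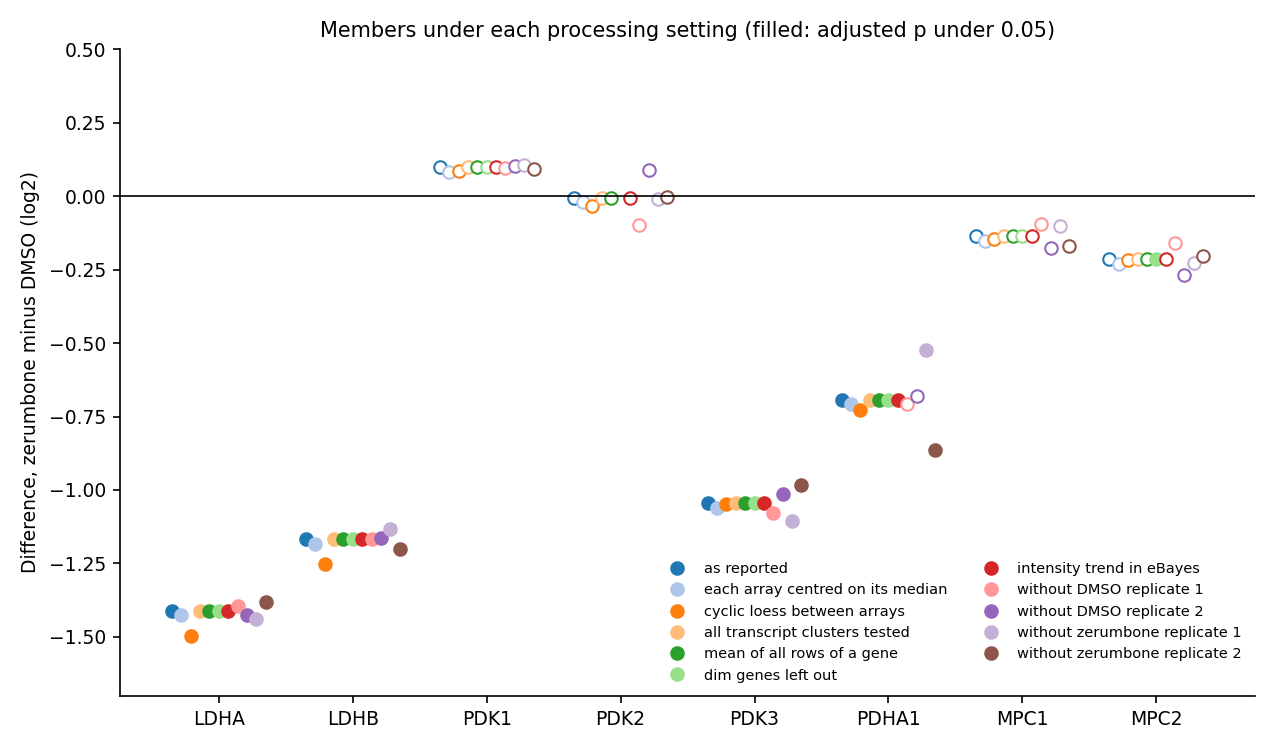
Difference, zerumbone minus DMSO, on the log2 scale for the 8 measured genes under the reported setting and each alternative (colours), filled where the limma adjusted p is under 0.05. LDHA, LDHB and PDK3 are filled under every setting shown, PDHA1 is open without either DMSO array, and MPC2 is filled only with dim genes left out.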

How the data were processed

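The deposited table holds log2 expression values of 4 Affymetrix arrays, made by the authors with RMA in the Affymetrix Expression Console, per the submitters' processing notes. Versions and build are not given in the sources used here. RMA is meant to equalise the array distributions, so a difference is read relative to the other genes. The deposited values still differ slightly between groups. Their median difference over all genes was 0.07 as deposited and 8e-04 after cyclic loess. The values reach 19.93, above the 16 bits of a scanner, so a further step is possible. Of 70523 rows, 2995 control, probe-region and junction rows were left out. Through GEO's platform annotation 23781 of 67528 clusters carry 1 symbol, 1543 several and 42204 none. The row with the highest mean was kept per gene; each measured gene named here has 1 row, except KRT8 and DCN with 2 each. Groups came from the source labels, and replicates were numbered in accession order.

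Differences were tested with lmFit and eBayes of limma 3.58.1 in R 4.3.3 over 22465 genes, with 2 residual and 2.88 prior degrees of freedom. Steps were tested on simulated data. Ratios used scipy 1.17.1; ratios with PDK2, which is at background level, and with SLC16A1 and SLC16A3 were not computed. Plots used matplotlib 3.10.9 under Python 3.11.15.

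The members and lists were chosen with earlier results of these data known. The naming rule takes all members, fixed partners, and from each list up to 4 called genes by size of change. ME1, LIAS, SLC16A8, EMB, the other lactate dehydrogenases, PDHA2, PPARGC1A, PPARGC1B, the markers and the SLC16A genes of the closing section were named after their values were seen. GPT2, HNF4A and COL3A1 are not analysed here.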

Additional observations from a re-analysis of the deposited data

How the results depend on the processing

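No paired analysis was possible because the labels give no replicate numbers. Alternatives were median centring, cyclic loess, all transcript clusters, the mean of a gene's rows, dim genes left out, an intensity trend in eBayes, and leaving out each array. For the 8 measured genes, 76 of 79 values kept their side of the threshold; the exceptions are PDHA1 without either DMSO array and MPC2 with dim genes left out. PDK2, not called, went from -0.01 to 0.09 without DMSO replicate 2 and has no value with dim genes left out. For the 24 other named genes 220 of 237 kept their side, 16 lost the call and 1 gained it. No called value turned its sign; PDK4 and SLC16A7, not called, each did under 2 alternatives. The count of these genes that fell was 4 as reported, 3 to 4 with an array left out and 4 to 5 otherwise, and 0 rose under every alternative. Over all genes, 4125 were higher and 3966 lower as reported; with an array left out the counts ran from 2557 to 3822 and from 2854 to 3642. The higher count was 2557 without DMSO replicate 1 and 2687 without DMSO replicate 2. With an array left out, the shift of LDHA minus LDHB ran from -0.31 to -0.18, that of PDK1 minus PDK3 from 1.07 to 1.21, and that of MPC1 minus MPC2 from 0.03 to 0.12. A lone array was assumed to vary like the other group. The number of arrays limits the precision, and PDK2 and PDK3 lie at or near background.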

Other observations

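With SLC16A1 and SLC16A3 not analysed here, the other measured genes of the SLC16A family were looked up after the results above were seen. Whether their products carry lactate was not measured, and they do not stand in for SLC16A1 and SLC16A3. Of 7, 2 passed the limma test (28.6%, against 36.0% of all genes), both lower under zerumbone, and 3 were at background level in both groups. SLC16A5 was at 7.99 and 8.03 under DMSO and at 7.58 and 7.60 under zerumbone, with an adjusted p of 0.00513. SLC16A4 was at 9.74 and 9.73 under DMSO and at 9.40 and 9.48 under zerumbone, with an adjusted p of 0.0223. SLC16A14 lay lower on both zerumbone arrays, at 7.55 and 7.62 against 7.77 and 7.82, and did not pass (0.0620). SLC16A13 was at 6.61 and 6.65 under DMSO and at 6.61 and 6.89 under zerumbone, so its groups overlapped.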
